A study of Homo sapiens with 16 samples.

Results

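The messenger RNA of 49 genes that belong by name to families of splicing factors and RNA-binding proteins was followed in U2OS cells, a human osteosarcoma line, after treatment with small interfering RNAs (siRNAs) against 5 chromatin proteins. The genes were every entry, among the 8808 in the authors' table of expression values, whose symbol starts with one of 18 family names: SRSF, HNRNP, RBM, RBFOX, PRPF, SF3A or SF3B, SNRP, PTBP, MBNL, CELF, LUC7L, U2AF, KHDRBS, QKI, NOVA, ESRP, SRRM or CLK. The authors had limited the table to genes they took as significant, by a rule not given in the sources used here, and family genes outside it were not analysed here at the gene level. Of the 49, 40 were protein-coding genes, 5 were pseudogenes, 3 were antisense transcripts by their names and 1 was a read-through transcript joining neighbouring genes. RBM genes made up 16 and HNRNP genes 9, while 4 families (SF3, U2AF, LUC7L and KHDRBS) had no listed gene.

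The groups were siMRG15 (a pool of siRNAs against MRG15, gene MORF4L1), siMRGX (a pool against its paralogue MRGX, gene MORF4L2), siMRGBP (a pool against MRGBP), siBRD8 (an siRNA against BRD8 given by catalogue number) and siTIP60 (a pool against TIP60, gene KAT5), each set against siLuc, a control siRNA against luciferase. Every group held 2 libraries of polyadenylated RNA, 12 in all, all from U2OS cells in the same growth medium, and the labels do not say whether the 2 came from separate cultures. The p-values below therefore cover no more than the spread of these libraries, and that spread may be technical. The effective library sizes recovered from the values ran from 57255783 to 110402095 reads, of which 30.4 to 38.2% lay in the 8808 genes. Under its own siRNA each targeted gene stood at 4.57% of its siLuc mean for MORF4L1, 7.4% for MORF4L2, 7.66% for MRGBP, 24.2% for BRD8 and 13.8% for KAT5. Of the 12 libraries the 2 siLuc libraries were the least alike, with a chi-square per degree of freedom of 52.7 between their read counts against 4.73 to 27.8 within the knockdowns. The labels call these cells epithelial and from an osteosarcoma. Of 11 osteoblast and mesenchymal markers 5 were in the table (RUNX2, ALPL, SPP1, COL1A1 and VIM), and their summed level was 3111 to 3176 CPM in siMRG15, 2999 to 3123 CPM in siMRGX, 3761 to 4044 CPM in siMRGBP, 3749 to 3768 CPM in siBRD8 and 4517 to 4843 CPM in siTIP60, against 3998 to 4792 CPM in siLuc. The siMRG15 and siMRGX sums thus lay below siLuc, and their part in the changes of those groups was not tested. Of 9 epithelial markers 5 were in the table, and 4 of these, leaving out the family gene ESRP2, summed to 82.1 to 99.5 CPM in siLuc.

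Splicing joins exons under the direction of small nuclear ribonucleoproteins and their protein partners, and the choice of exon is tuned by RNA-binding proteins that favour or block a splice site. SR proteins (SRSF) mostly bind exonic enhancers and promote inclusion, whereas hnRNP proteins, among them the polypyrimidine tract binding proteins (PTBP), often repress. MBNL, CELF, RBFOX, NOVA, QKI and ESRP proteins give tissues such as muscle, brain and epithelium their own splicing programmes. MRG15 reads methylated histone H3 lysine 36 and has been described as an adaptor that brings PTBP1 to some alternatively spliced exons, and MRG15, MRGX, MRGBP and BRD8 are found in the TIP60 acetyltransferase complex.

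Levels are given in CPM, the reads of a gene scaled to a common library size, which are not corrected for gene length, so levels of different genes are not compared. Changes are given on the log2(CPM + 1) scale as the knockdown minus siLuc, or as the named pair, ± SE with n = 2 libraries a group, and they understate the change of genes near or under 1 CPM. A gene is said to have risen or fallen where the limma test across all 8808 genes gave a Benjamini-Hochberg adjusted p under the threshold of 0.05. The authors had already selected these genes as significant, so many calls are built in, and only 48 of the 8808 passed in no comparison with siLuc. The adjusted p therefore cannot be read as a limit on the share of false calls. Each count is to be read beside the share of all genes. In RNA from whole cultures, a change in RNA per cell and a change in the mix of cells cannot be told apart. All 5 comparisons share the same siLuc libraries.

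After knockdown of TIP60, 30 of the 49 genes fell (61.2%) and 11 rose (22.4%), while 8 did not pass the test. Among all 8808 genes 37.7% fell and 41.1% rose in that comparison, 78.8% in either direction. The median change of the 49 was -0.42, beside 0.05 over all genes. After knockdown of MRG15, 15 rose and 15 fell, where the shares among all genes were 33.5% higher and 35.8% lower, 69.3% in all. After knockdown of MRGX, 12 rose and 19 fell, where 28.2% of all genes were higher and 40% lower, 68.2% in all. After knockdown of MRGBP, 8 rose and 17 fell, where 32.1% of all genes were higher and 32.9% lower, 65% in all. After knockdown of BRD8, 13 rose and 10 fell, where 28.3% of all genes were higher and 25.9% lower, 54.2% in all.

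**Figure D1:**
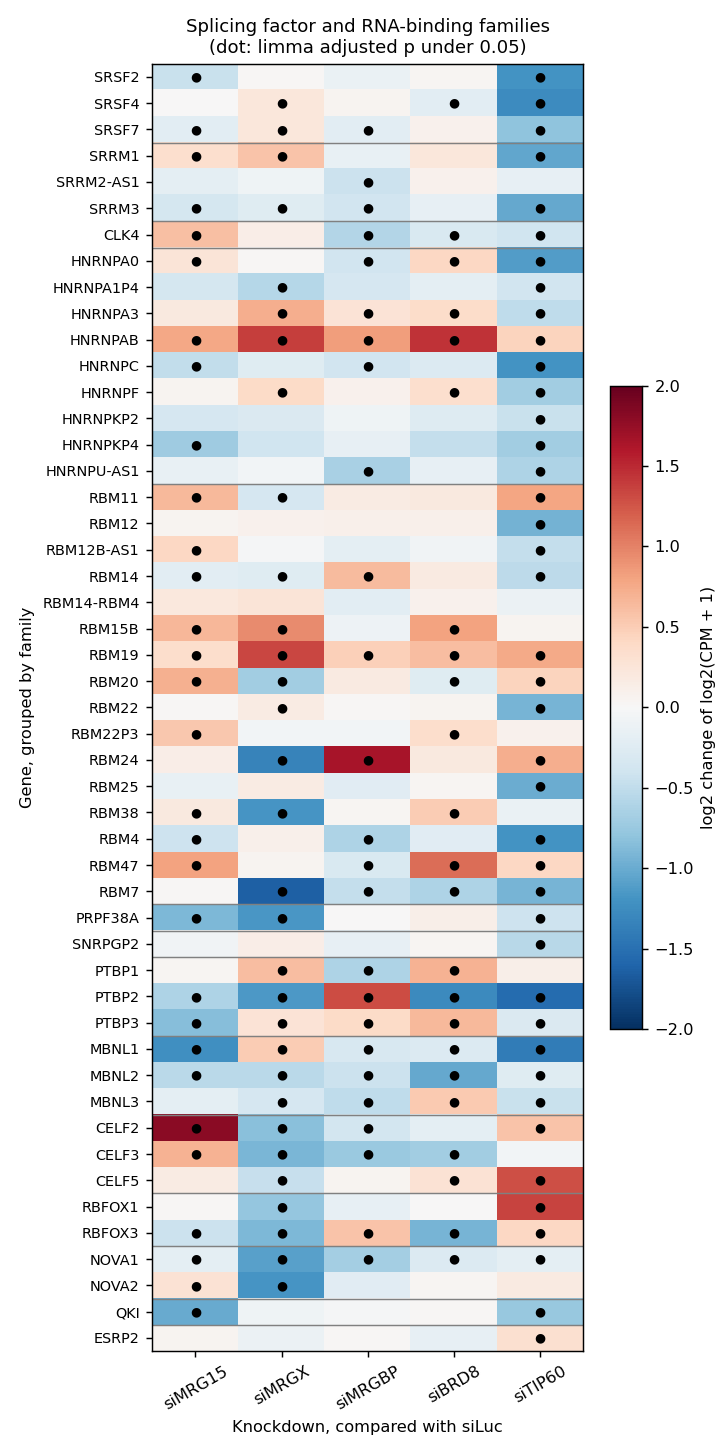
Change of each of the 49 genes (one line each, grouped by family) in the 5 knockdowns (columns) against siLuc, as a difference of log2(CPM + 1) from blue (lower) to red (higher), with a dot where the limma adjusted p was under 0.05. Most of the siTIP60 column is blue, with 30 genes lower and 11 higher, and the PTBP, MBNL, CELF and RBM genes differ in direction between columns.

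The split for siMRGX depended on scaling. With median-of-ratios factors the median over the 8808 genes shifted by 0.11 in siMRGX, and the test gave 18 of the 49 higher and 16 lower, and factors by the trimmed mean of M-values (TMM) gave 16 and 16. Over all genes the median-of-ratios split was 3120 higher and 2886 lower, in place of 2488 and 3520. In siMRG15 TMM factors gave 17 of the 49 higher and 13 lower, and median-of-ratios factors 15 and 15. Over all genes the TMM split in siMRG15 was 3249 higher and 2916 lower, in place of 2951 and 3149. In siTIP60 both scalings gave 11 higher and 31 lower.

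Summed over the 49 genes, the level was 3002 and 3134 CPM in the siTIP60 libraries, against 4658 and 4993 CPM in the siLuc libraries. It was 4145 and 4275 CPM in siMRG15, 5506 and 5396 CPM in siMRGX, 4751 and 4626 CPM in siMRGBP, and 5379 and 5387 CPM in siBRD8. Both siTIP60 libraries lay below all 10 others. Falls in siTIP60 were most frequent among the genes of higher level. Of the 26 with a mean of at least 20 CPM, 19 fell (73.1%), where 51.2% of the 3076 genes of that level fell. Of the 23 under 20 CPM, 11 fell (47.8%), where 30.5% of such genes fell. In siMRGX 11 of those under 20 CPM fell (47.8%) and 0 rose, where 42.9% of all genes of that level fell and 20.1% rose. Of those at or above 20 CPM 12 rose (46.2%) and 8 fell (30.8%) in siMRGX, close to the 43.4% and 34.6% of all genes of that level. The cut at 20 CPM was chosen after the values were seen.

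In siTIP60 18 of the 49 genes (36.7%) were lower than in siLuc and also lower than in each of the 4 other knockdowns, every one of the 5 differences passing the test, where 16.3% of all genes met that rule. The 18 were HNRNPA0, HNRNPA3, HNRNPC, HNRNPF, MBNL1, PTBP2, RBM4, RBM12, RBM12B-AS1, RBM14, RBM22, RBM25, SNRPGP2, SRRM1, SRRM3, SRSF2, SRSF4 and SRSF7. In the other direction 3 (6.12%) were highest in siTIP60, namely CELF5, ESRP2 and RBFOX1, where 19.7% of all genes were. In siMRGX 11 genes (22.4%) were lower than everywhere else, where 14.1% of all genes were: CELF2, CELF5, NOVA1, NOVA2, PRPF38A, RBFOX1, RBM7, RBM11, RBM20, RBM24 and RBM38. In the other direction 6 (12.2%) were highest in siMRGX, where 9.38% of all genes were, and these were HNRNPA3, MBNL1, RBM19, SRRM1, SRSF4 and SRSF7. That 6 became 3 without siMRGX replicate 1 or without siMRGX replicate 2, and 11 under median-of-ratios factors. With genes under a mean of 5 CPM left out, the 3 highest in siTIP60 became 0 and the 11 lowest in siMRGX became 7. The 18 lowest in siTIP60 stayed at 16 to 18 when any 1 library was left out. The rule was chosen after the values were seen.

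Pair by pair, 43 of the 49 genes differed between siMRGX and siTIP60, where 83% of all genes did. Against siTIP60, 40 differed in siMRG15 (82.2% of all genes), 38 in siMRGBP (74.4%) and 40 in siBRD8 (76%). Between the paralogue knockdowns siMRG15 and siMRGX 35 differed (74.5% of all genes). Between siMRG15 and siMRGBP 27 differed (76% of all genes), and between siMRG15 and siBRD8 25 (67.9%). Between siMRGX and siMRGBP 33 differed (71.1% of all genes), between siMRGX and siBRD8 27 (64.2%), and between siMRGBP and siBRD8 29 (61.9%).

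Of the 49 genes, 26 passed the test in both directions, higher in at least 1 knockdown and lower in another (53.1%, against 51.3% of all genes). A further 17 only fell (34.7%, against 24.1%), and 5 only rose (10.2%, against 24.1%). The read-through transcript RBM14-RBM4 passed in no comparison. HNRNPAB and RBM19 rose in all 5, and MBNL2 and NOVA1 fell in all 5. Such genes made up 4.08% of the 49 in each direction, beside 4.6% (higher) and 4.69% (lower) of all genes.

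HNRNPAB encodes an hnRNP A/B protein that binds RNA and was found as a partner of the APOBEC1 editing enzyme. Its level was 119 and 123 CPM in siMRG15, 182 and 188 in siMRGX, 123 and 128 in siMRGBP, 193 and 195 in siBRD8, and 96.4 and 95 in siTIP60, against 68.4 and 72.6 CPM in siLuc. Every knockdown library lay above both siLuc libraries. The change was 1.45 ± 0.06 in siBRD8 (limma adjusted p = 2.54e-09) and 1.38 ± 0.06 in siMRGX (limma adjusted p = 1.03e-09), and it was smallest in siTIP60 at 0.44 ± 0.06 (limma adjusted p = 1.22e-05). The difference between siMRGX and siBRD8 did not pass the test ( -0.07 ± 0.06, siMRGX minus siBRD8), and both exceeded siTIP60, by 0.94 ± 0.06 for siMRGX and 1.01 ± 0.06 for siBRD8. HNRNPAB was the only hnRNP gene of the table that rose in siTIP60.

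RBM19 encodes a nucleolar RNA-binding protein needed for ribosomal RNA processing. Its level was 53.4 and 55.2 CPM in siMRG15, 105 and 113 in siMRGX, 58.4 and 60 in siMRGBP, 66.4 and 65.6 in siBRD8, and 71.1 and 72.9 in siTIP60, against 47.2 and 38.2 CPM in siLuc. Again no knockdown library reached down to siLuc. The largest change was in siMRGX, 1.33 ± 0.08 (limma adjusted p = 2.35e-08), which exceeded siTIP60, the next, by 0.59 ± 0.08. The smallest was in siMRG15, 0.35 ± 0.08 (limma adjusted p = 0.00242).

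The stretches of 250 bases before the transcription starts of HNRNPAB, RBM19, PTBP2 and RBM24 are shown to set the promoters of the pair of genes that rose everywhere beside those of the pair with the widest swings between knockdowns. They are RefSeq sequences of GRCh38.p14, 5′ to 3′ on the gene's strand, at chr5:178204283-178204532 (+ strand), chr12:113966326-113966575 (- strand), chr1:96722388-96722637 (+ strand) and chr6:17281814-17282063 (+ strand). Capitals mark matches, on either strand, to 6 short motifs chosen after the expression values were seen. The E-box was searched as CACGTG. The letters of the GC box were GGGCGG. For the CCAAT box the motif was its own name. The TATA box was searched with the letters TATAAA. For the ETS core the letters were CCGGAA. The cyclic AMP response element was searched as TGACGTCA. The marked matches do not overlap one another. 
HNRNPAB: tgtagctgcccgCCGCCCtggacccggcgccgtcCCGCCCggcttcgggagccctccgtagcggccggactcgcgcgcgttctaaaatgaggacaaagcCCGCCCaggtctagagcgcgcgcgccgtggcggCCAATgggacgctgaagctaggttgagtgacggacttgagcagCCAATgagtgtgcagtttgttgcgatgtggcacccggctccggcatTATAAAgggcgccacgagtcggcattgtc
RBM19: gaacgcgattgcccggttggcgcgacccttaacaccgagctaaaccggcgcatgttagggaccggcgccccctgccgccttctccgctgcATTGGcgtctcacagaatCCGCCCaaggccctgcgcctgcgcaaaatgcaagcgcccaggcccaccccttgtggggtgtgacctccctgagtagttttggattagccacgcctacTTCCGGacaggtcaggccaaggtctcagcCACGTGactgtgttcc
PTBP2: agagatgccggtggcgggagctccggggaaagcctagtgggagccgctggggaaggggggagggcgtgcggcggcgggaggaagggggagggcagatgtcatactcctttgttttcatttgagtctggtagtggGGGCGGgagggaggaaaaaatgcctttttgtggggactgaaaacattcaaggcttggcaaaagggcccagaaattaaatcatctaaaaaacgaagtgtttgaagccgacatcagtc
RBM24: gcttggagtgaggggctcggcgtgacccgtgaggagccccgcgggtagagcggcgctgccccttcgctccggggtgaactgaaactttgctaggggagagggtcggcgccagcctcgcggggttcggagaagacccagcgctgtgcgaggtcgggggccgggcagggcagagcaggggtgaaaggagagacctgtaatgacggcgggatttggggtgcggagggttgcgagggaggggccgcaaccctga
The HNRNPAB window holds 3 GC boxes, 2 CCAAT boxes and 1 TATA box, and the RBM19 window 1 E-box, 1 GC box, 1 CCAAT box and 1 ETS core. The PTBP2 window holds 1 GC box and the RBM24 window none of these letters. Over the 35116 promoter windows of the same length in the table, 42.6% hold a GC box, 32% CCAAT, 14.5% the ETS core, 10.7% TATAAA, 6.34% CACGTG and 1.65% TGACGTCA. A match is a description of the letters only. Of the 49 genes 40 had a promoter entry.

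MBNL2, a muscleblind-like zinc finger protein that binds pyrimidine-GC motifs and guides developmental exon switches, stood at 49.6 and 49.1 CPM in siMRG15, 49.7 and 49.3 in siMRGX, 47.1 and 60.4 in siMRGBP, 33.8 and 35.7 in siBRD8, and 59 and 63.5 in siTIP60, against 74.7 and 69.8 CPM in siLuc. All 10 knockdown libraries lay under both siLuc libraries. The fall was largest in siBRD8, -1.03 ± 0.09 (limma adjusted p = 1.47e-06), where it was lower than in each other knockdown, and smallest in siTIP60, -0.24 ± 0.09 (limma adjusted p = 0.035). The siTIP60 call did not pass without siLuc replicate 1 or without siTIP60 replicate 1 (limma adjusted p up to 0.182). NOVA1, a neuronal splicing factor of the KH domain class, stood at 13.4 and 14.7 CPM in siMRG15, 7.44 and 6.69 in siMRGX, 9.19 and 10.3 in siMRGBP, 13.3 and 13.2 in siBRD8, and 14.2 and 13.9 in siTIP60, against 15.7 and 16.7 CPM in siLuc. Its libraries too lay under siLuc in every knockdown, and the fall was largest in siMRGX, -1.09 ± 0.08 (limma adjusted p = 9.59e-08). In siMRG15 it was -0.19 ± 0.08 (limma adjusted p = 0.0473), a call lost in 11 of 20 alternatives, among them leaving out siLuc replicate 2 or siMRG15 replicate 1 (limma adjusted p up to 0.258). The siBRD8 call of NOVA1 was lost without siLuc replicate 2 or either siBRD8 library (limma adjusted p up to 0.063). Its siTIP60 call was lost without siLuc replicate 2, either siTIP60 library or either siBRD8 library (limma adjusted p up to 0.158).

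**Figure D2:**
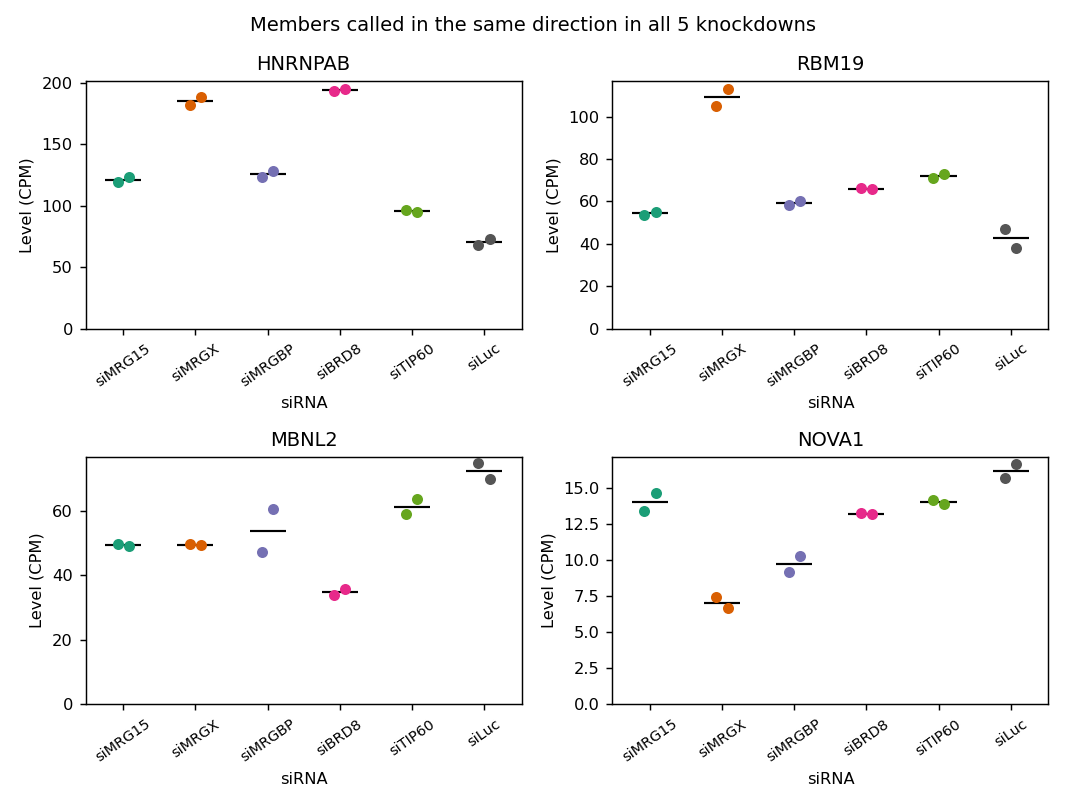
Level (CPM, from 0) of HNRNPAB, RBM19, MBNL2 and NOVA1 in each library, with knockdowns left of siLuc, 2 points a group and a line at their mean. Points of HNRNPAB and RBM19 lie above both siLuc points in all 5 knockdowns and those of MBNL2 and NOVA1 below them.

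The 3 SR proteins of the table all fell in siTIP60, where 37.7% of all genes fell. SRSF4, an SR protein with a long arginine-serine tail, stood at 70 and 73.5 CPM in siMRG15, 84.5 and 82.3 in siMRGX, 73 and 75.7 in siMRGBP, 60.9 and 62.3 in siBRD8, and 28.8 and 29.9 in siTIP60, against 70.7 and 72.3 CPM in siLuc. The siTIP60 libraries were below all others, and the change was -1.26 ± 0.06 (limma adjusted p = 6.23e-10), a level 0.419 times that of siLuc on the scale of CPM + 1. SRSF2, which binds exonic enhancers and is mutated in myeloid neoplasms, stood at 208 and 201 CPM in siMRG15, 292 and 272 in siMRGX, 273 and 233 in siMRGBP, 280 and 290 in siBRD8, and 121 and 118 in siTIP60, against 255 and 301 CPM in siLuc. It changed by -1.20 ± 0.09 in siTIP60 (limma adjusted p = 4.97e-08) and by -0.44 ± 0.09 in siMRG15 (limma adjusted p = 0.000709), and the groups did not overlap with siLuc in either. SRSF7, which also couples splicing to messenger RNA export, had 70.5 and 71.4 CPM in siTIP60, against 124 and 127 CPM in siLuc. It fell by 0.81 on the log2 scale in siTIP60 and lay within 0.23 of siLuc, in either direction, in the other 4 knockdowns. In siBRD8 SRSF4 fell, with a change of -0.21 ± 0.06, a call lost without siBRD8 replicate 1 (limma adjusted p = 0.0608). In siMRGX SRSF4 and SRSF7 rose by 0.22 ± 0.06 and 0.23 ± 0.05. The difference between siMRGX and siTIP60 was 1.47 ± 0.06 for SRSF4 and 1.23 ± 0.09 for SRSF2, siMRGX minus siTIP60.

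The serine/arginine repetitive matrix genes SRRM1, a splicing coactivator, and SRRM3, a regulator of neuronal microexons, fell in siTIP60 too, with changes of -1.04 ± 0.09 (limma adjusted p = 3.08e-07) and -1.03 ± 0.08 (limma adjusted p = 1.31e-07). SRRM3 fell less in siMRGBP (-0.39 ± 0.08), siMRG15 (-0.35 ± 0.08) and siMRGX (-0.24 ± 0.08), the last a call lost in 6 of 20 alternatives. SRRM1 had 319 and 318 CPM in siMRGX and 97.7 and 110 in siTIP60, against 233 and 196 CPM in siLuc. It thus lay above siLuc in siMRGX and below it in siTIP60. The siMRGX change was 0.57 ± 0.09 (limma adjusted p = 0.000109). SRRM2-AS1, an antisense transcript, passed the test in siMRGBP alone, at -0.43 ± 0.13, a call lost without siMRGBP replicate 1 (limma adjusted p = 0.121). Whether the counting used strand is not given in the sources used here, so its reads and those of its sense partner cannot be told apart. CLK4, a kinase that phosphorylates SR proteins, rose in siMRG15 (0.60 ± 0.08) and fell in siMRGBP (-0.58 ± 0.08), siTIP60 (-0.40 ± 0.08) and siBRD8 (-0.30 ± 0.08, a call lost without siBRD8 replicate 2 at a limma adjusted p of 0.0678).

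Of the 9 hnRNP entries 8 fell in siTIP60 and 1 rose, where 37.7% of all genes fell and 41.1% rose. Only 5 of the 9 were protein-coding genes. The other entries that fell were HNRNPU-AS1 and pseudogenes, which are uncertain for the reasons given below. The protein-coding ones that fell were HNRNPC, HNRNPA0, HNRNPF and HNRNPA3. HNRNPC, which coats nascent transcripts at uridine tracts, had 703 and 520 CPM in siMRGBP and 349 and 339 in siTIP60, against 647 and 958 CPM in siLuc. The siTIP60 libraries lay under both, with a change of -1.19 ± 0.16 (limma adjusted p = 1.24e-05). The siLuc libraries differed from each other by more than the siMRGBP pair did, and the calls in siMRG15 and siMRGBP were lost without siLuc replicate 2. The siMRG15 call was also lost without either siMRG15 library (limma adjusted p up to 0.153), and the siMRGBP call, whose libraries overlapped with siLuc, was lost in 15 of 20 alternatives (limma adjusted p up to 0.514). HNRNPA0, a binder of AU-rich elements, had 43.8 and 41.4 CPM in siTIP60, against 104 and 84.9 CPM in siLuc, without overlap, and fell with a change of -1.12 ± 0.09 (limma adjusted p = 7.12e-08). HNRNPF, which binds G tracts, had 190 and 194 CPM in siTIP60, against 321 and 304 CPM in siLuc, again without overlap, and fell with a change of -0.70 ± 0.06 (limma adjusted p = 1.38e-07).

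HNRNPA3, a close relative of HNRNPA1, had 291 and 331 CPM in siMRG15, 454 and 440 in siMRGX, 308 and 346 in siMRGBP, 349 and 346 in siBRD8, and 172 and 210 in siTIP60, against 284 and 258 CPM in siLuc. It was above siLuc in siMRGX (0.72 ± 0.10, limma adjusted p = 2.54e-05) and below siLuc in siTIP60 (-0.51 ± 0.10, limma adjusted p = 0.000365). HNRNPU-AS1, by its name antisense to HNRNPU, had 2.51 and 1.81 CPM in siMRG15, 2.24 and 2.48 in siMRGX, 1.01 and 1.44 in siMRGBP, 2.09 and 2.12 in siBRD8, and 1.33 and 1.2 in siTIP60, against 2.47 and 2.49 CPM in siLuc. It fell in siMRGBP, with a change of -0.65 ± 0.12, and in siTIP60, with -0.62 ± 0.12. The same limit of strand applies. In the gene reference used here the name HNRNPU-AS1 leads only to the protein-coding gene HNRNPU, so a separate antisense gene is uncertain. The pseudogenes HNRNPA1P4, HNRNPKP2 and HNRNPKP4 can share reads with their parent genes and are uncertain. Their 3 calls in siTIP60 were each lost without siLuc replicate 2, the library in which all 3 were highest, or without siTIP60 replicate 1 (limma adjusted p up to 0.438).

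**Figure D3:**
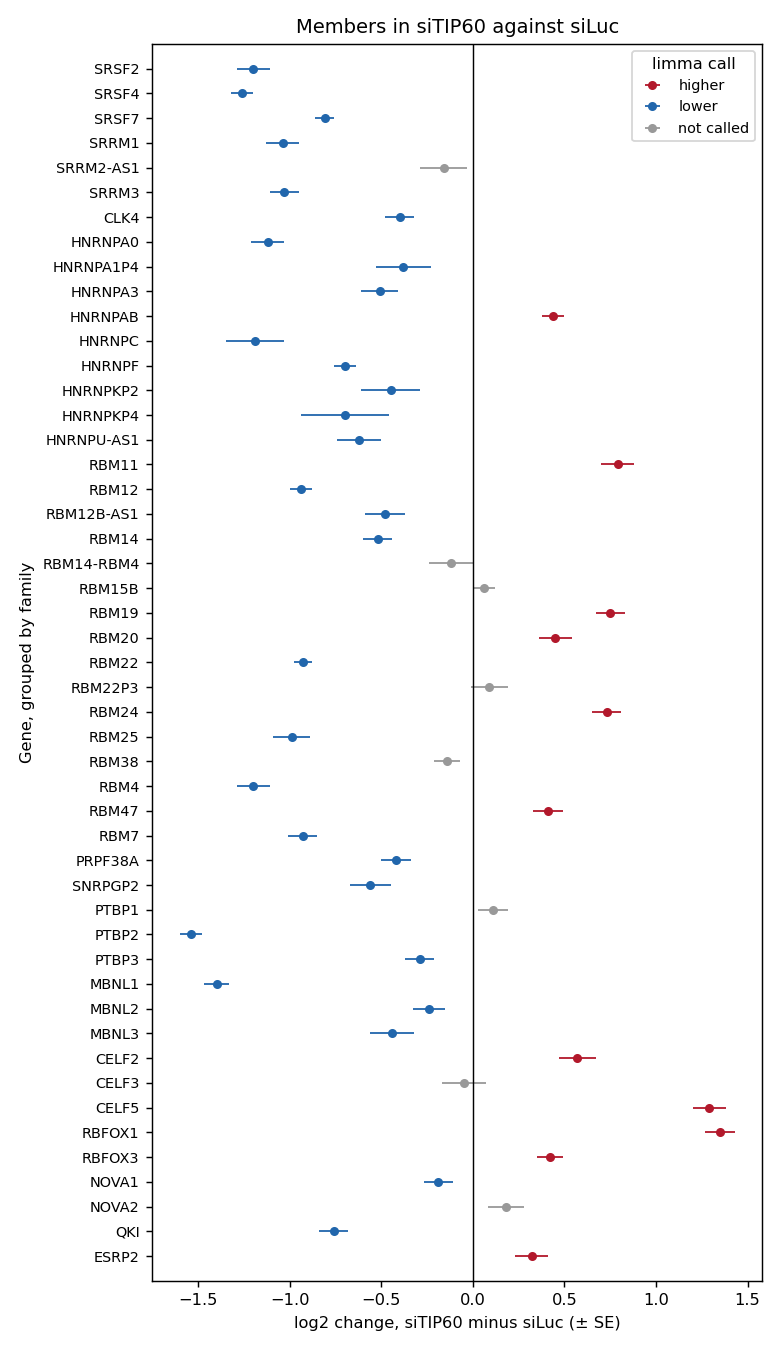
Change of log2(CPM + 1) in siTIP60 minus siLuc (horizontal axis, ± SE) for each of the 49 genes, grouped by family from top to bottom, in red where higher, blue where lower and grey where the limma test was not passed. The SRSF, SRRM and most HNRNP points lie left of 0, and RBFOX1 and CELF5 are furthest to the right.

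The polypyrimidine tract binding genes followed different courses. PTBP1, the repressor of neuronal and many other exons in dividing cells, had 419 and 447 CPM in siMRG15, 639 and 660 in siMRGX, 262 and 292 in siMRGBP, 693 and 682 in siBRD8, and 446 and 463 in siTIP60, against 445 and 400 CPM in siLuc. It lay above siLuc in siBRD8 (0.70 ± 0.08, limma adjusted p = 6.43e-06) and siMRGX (0.62 ± 0.08, limma adjusted p = 9.88e-06) and below it in siMRGBP (-0.61 ± 0.08, limma adjusted p = 1.44e-05). In siMRG15 and siTIP60 it did not pass the test, at 0.04 ± 0.08 and 0.11 ± 0.08.

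PTBP2, the neuronal paralogue whose messenger RNA PTBP1 is known to repress by exon skipping, had 44.5 and 44.1 CPM in siMRG15, 30.6 and 29.7 in siMRGX, 179 and 163 in siMRGBP, 27.4 and 27.8 in siBRD8, and 22.9 and 22.6 in siTIP60, against 67 and 69.8 CPM in siLuc. It was 2.48 times the siLuc level in siMRGBP, on the scale of CPM + 1, and lower than siLuc in the 4 other knockdowns, with no overlap of libraries. The change was 1.31 ± 0.06 in siMRGBP (limma adjusted p = 3.12e-09) and -1.54 ± 0.06 in siTIP60 (limma adjusted p = 2.02e-10), a difference of 2.85 ± 0.06 between these knockdowns (limma adjusted p = 1.95e-11). In siBRD8 it was -1.28 ± 0.06, in siMRGX -1.15 ± 0.06 and in siMRG15 -0.62 ± 0.06. PTBP1 and PTBP2 thus passed the test in opposite directions in siMRGX, siMRGBP and siBRD8, while in siMRG15 and siTIP60 PTBP2 fell and PTBP1 did not pass. PTBP3, the third paralogue, had 79.4 and 76.4 CPM in siMRG15, 171 and 170 in siMRGX, 195 and 178 in siMRGBP, 221 and 224 in siBRD8, and 115 and 116 in siTIP60, against 130 and 154 CPM in siLuc. It fell in siMRG15, with a change of -0.85 ± 0.08 (limma adjusted p = 6.87e-07), where it was lower than in any other knockdown, and rose in siBRD8 by 0.65 ± 0.08 (limma adjusted p = 1.67e-05), where it was higher than in any other. Its rise in siMRGX, 0.27 ± 0.08, was lost without siLuc replicate 1 (limma adjusted p = 0.0932).

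MBNL1, the main muscleblind-like regulator outside brain, had 114 and 112 CPM in siMRG15, 384 and 374 in siMRGX, 205 and 222 in siMRGBP, 220 and 221 in siBRD8, and 94.9 and 106 in siTIP60, against 256 and 276 CPM in siLuc. The siMRG15, siMRGBP, siBRD8 and siTIP60 libraries lay below siLuc and the siMRGX libraries above it. The changes were -1.40 ± 0.07 in siTIP60 (limma adjusted p = 1.38e-09), -1.22 ± 0.07 in siMRG15 (limma adjusted p = 1.15e-08) and 0.51 ± 0.07 in siMRGX (limma adjusted p = 2.83e-05). Smaller falls passed in siMRGBP (-0.32 ± 0.07, limma adjusted p = 0.00148) and siBRD8 (-0.27 ± 0.07, limma adjusted p = 0.00541). Between the paralogue knockdowns siMRG15 and siMRGX the difference was -1.73 ± 0.07 (limma adjusted p = 3.68e-10). MBNL3 rose in siBRD8 (0.53 ± 0.12) and fell in siMRGBP (-0.51 ± 0.12) and siTIP60 (-0.44 ± 0.12). Its call in siMRGX, at -0.34 ± 0.12, was lost under both other scalings and without siLuc replicate 2 or siMRGX replicate 1 (limma adjusted p up to 0.202).

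QKI, a STAR-family protein that steers splicing and circular RNA formation, had 223 and 219 CPM in siMRG15, 437 and 411 in siMRGX, 446 and 437 in siMRGBP, 450 and 456 in siBRD8, and 250 and 276 in siTIP60, against 416 and 480 CPM in siLuc. It fell in siMRG15, with a change of -1.01 ± 0.08 (limma adjusted p = 1.36e-07), and in siTIP60, with -0.76 ± 0.08 (limma adjusted p = 1.05e-06), and in siMRGX, siMRGBP and siBRD8 the libraries overlapped with siLuc. Its level in siMRG15 was lower than in each other knockdown, siTIP60 included (difference -0.25 ± 0.08).

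CELF2, whose family often opposes MBNL proteins at shared exons, had 28.9 and 29.2 CPM in siMRG15, 4.06 and 3.58 in siMRGX, 5.08 and 6.37 in siMRGBP, 6.3 and 6.69 in siBRD8, and 11.3 and 12.2 in siTIP60, against 7.89 and 7.26 CPM in siLuc. The siMRG15 libraries stood above every other library. The change was 1.81 ± 0.10 in siMRG15 (limma adjusted p = 7.45e-09) and -0.83 ± 0.10 in siMRGX (limma adjusted p = 7.04e-06), a difference of 2.64 ± 0.10 between the paralogue knockdowns (limma adjusted p = 1.9e-10). CELF3 and CELF5, both enriched in neurons, were near or under 1 CPM in siLuc. CELF3 had 2.3 and 2.3 CPM in siMRG15, 0.0718 and 0.0839 in siMRGX, 0.245 and 0.19 in siMRGBP, 0.226 and 0.304 in siBRD8, and 0.919 and 1.02 in siTIP60, against 1.35 and 0.758 CPM in siLuc. It fell in siMRGX (-0.92 ± 0.12), siMRGBP (-0.74 ± 0.12) and siBRD8 (-0.69 ± 0.12) and rose in siMRG15 (0.70 ± 0.12). CELF5 had 0.92 and 1.11 CPM in siMRG15, 0.258 and 0.336 in siMRGX, 0.768 and 0.948 in siMRGBP, 1.11 and 1.26 in siBRD8, and 3.36 and 3.37 in siTIP60, against 0.885 and 0.688 CPM in siLuc. It rose in siTIP60 by 1.29 ± 0.09 (limma adjusted p = 5e-08).

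RBFOX1, a binder of UGCAUG elements that is enriched in neurons and muscle, had 1.44 and 1.45 CPM in siMRG15, 0.474 and 0.336 in siMRGX, 1.21 and 1.08 in siMRGBP, 1.39 and 1.4 in siBRD8, and 5.17 and 5.13 in siTIP60, against 1.35 and 1.46 CPM in siLuc. It stood above all other libraries in siTIP60, with a change of 1.35 ± 0.08 (limma adjusted p = 1e-08), and below them in siMRGX, with a change of -0.78 ± 0.08 (limma adjusted p = 3.24e-06). RBFOX3, the neuronal nuclear antigen NeuN, had 16.1 and 17 CPM in siMRG15, 11.6 and 11.7 in siMRGX, 35.8 and 32.3 in siMRGBP, 11.7 and 11.1 in siBRD8, and 30 and 31.4 in siTIP60, against 22.8 and 22.4 CPM in siLuc. It lay below siLuc in siMRG15, siMRGX and siBRD8 and above it in siMRGBP and siTIP60, and all 5 changes passed. The largest of these was -0.93 ± 0.07 in siBRD8 (limma adjusted p = 2.93e-07). NOVA2, a paralogue of NOVA1, had 64.4 and 62.4 CPM in siMRG15, 21.9 and 22.7 in siMRGX, 37.9 and 51 in siMRGBP, 51.9 and 54.9 in siBRD8, and 60.1 and 57.2 in siTIP60, against 53.7 and 50 CPM in siLuc. It fell in siMRGX, with a change of -1.18 ± 0.10 (limma adjusted p = 5.58e-07). In siMRGX all 7 CELF, RBFOX and NOVA genes of the table fell, under each scaling tried, where 40% of all genes fell. These 3 families were put together after the values were seen, and the other families with tissue programmes differed: MBNL1 rose in siMRGX, MBNL2 and MBNL3 fell, and QKI and ESRP2 did not pass the test.

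Beside these neuron-enriched genes, the 3 neuronal markers of the table that are not family genes (SYP, SNAP25 and STMN2) summed to 19 to 19.8 CPM in siMRG15, 8.89 to 9.23 CPM in siMRGX, 28.8 to 32.3 CPM in siMRGBP, 15 to 15.1 CPM in siBRD8 and 19.6 to 20.1 CPM in siTIP60, against 19.7 to 20.1 CPM in siLuc. Their sum was lowest in siMRGX and highest in siMRGBP, and in siTIP60 it overlapped with siLuc. Its part in the changes was not tested. ESRP2, an epithelial splicing factor, stood at 1.12 and 1.2 CPM in siTIP60, against 0.807 and 0.653 CPM in siLuc, and rose there by 0.32 ± 0.09 (limma adjusted p = 0.00646). The 4 other epithelial markers of the table (CDH1, KRT18, KRT5 and KRT14) summed to 48.9 to 50.3 CPM in siMRG15, 141 to 152 CPM in siMRGX, 106 to 107 CPM in siMRGBP, 121 to 128 CPM in siBRD8 and 159 to 160 CPM in siTIP60, against 82.1 to 99.5 CPM in siLuc. The sum was thus above siLuc also in siMRGX, siMRGBP and siBRD8, where the ESRP2 changes of -0.12 ± 0.09, 0.03 ± 0.09 and -0.17 ± 0.09 did not pass the test. Of 12 erythroid and myeloid markers 3 were in the table (HBA1, CD33 and PTPRC), with summed levels of 8.05 to 16.9 CPM in siTIP60, against 3.2 to 3.22 CPM in siLuc, and their part in the siTIP60 changes was not tested.

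**Figure D4:**
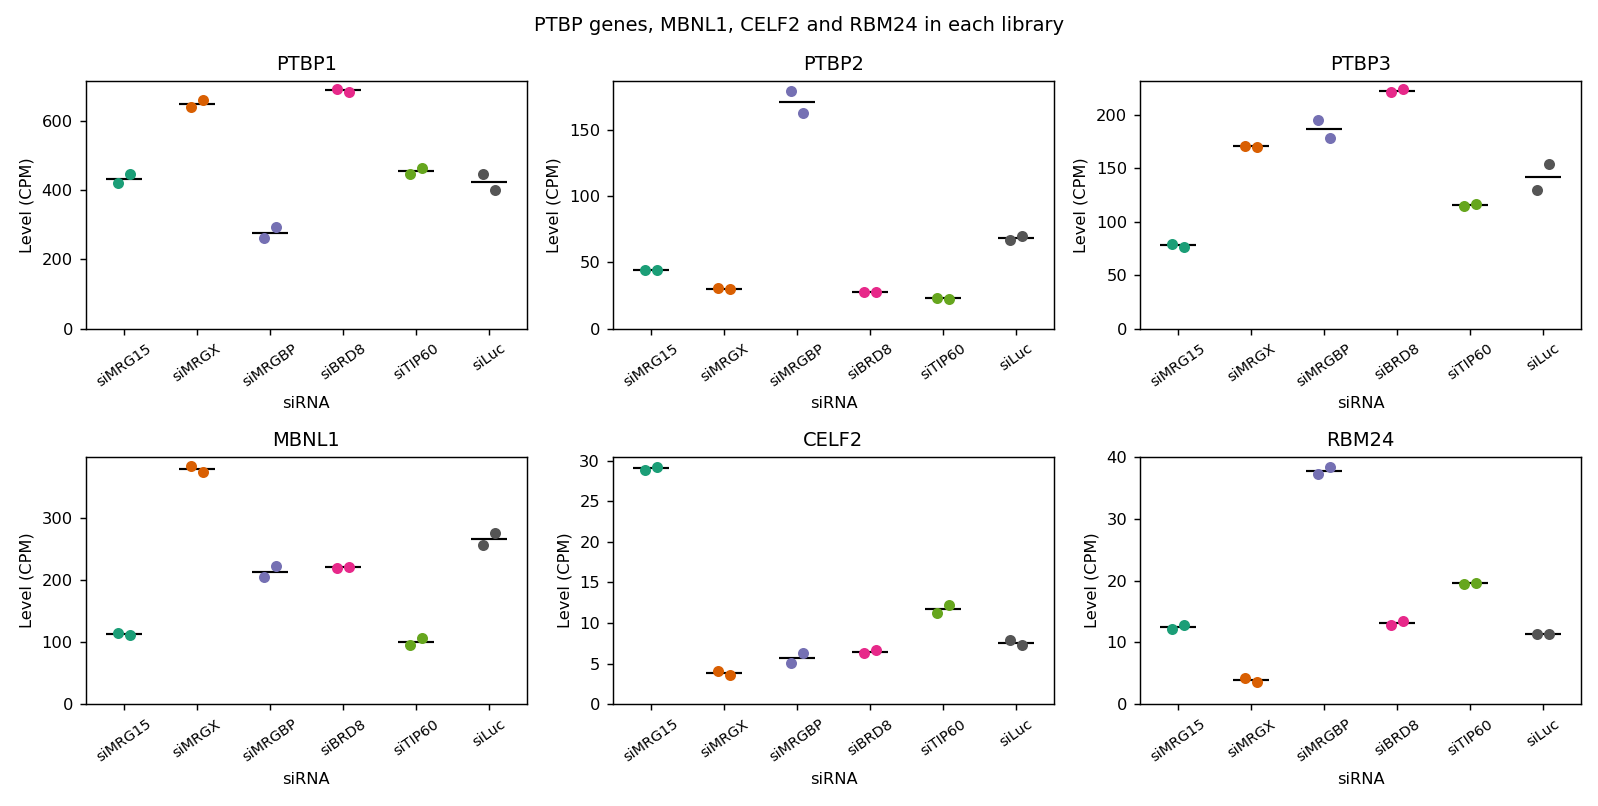
Level (CPM, from 0) of PTBP1, PTBP2, PTBP3, MBNL1, CELF2 and RBM24 in each library, with knockdowns left of siLuc, 2 points a group and a line at their mean. PTBP2 and RBM24 peak in siMRGBP, CELF2 in siMRG15, PTBP1 and PTBP3 in siBRD8 and MBNL1 in siMRGX.

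The 16 RBM entries went in both directions. In siMRG15 8 rose (50%) and 2 fell (12.5%), beside 33.5% and 35.8% of all genes. In siMRGX 3 rose (18.8%) and 6 fell (37.5%), beside 28.2% and 40%. In siMRGBP 3 rose and 3 fell (18.8% each), beside 32.1% and 32.9%, and in siBRD8 5 rose (31.2%) and 2 fell (12.5%), beside 28.3% and 25.9%. In siTIP60 5 rose (31.2%) and 7 fell (43.8%), beside 41.1% and 37.7% of all genes. RBM24, a muscle splicing factor that also sets messenger RNA stability, had the widest span of the 49. Its level was 12.1 and 12.9 CPM in siMRG15, 4.28 and 3.55 in siMRGX, 37.3 and 38.3 in siMRGBP, 12.8 and 13.5 in siBRD8, and 19.5 and 19.6 in siTIP60, against 11.4 and 11.3 CPM in siLuc. The siMRGBP libraries were the highest and the siMRGX libraries the lowest, with changes of 1.65 ± 0.08 (limma adjusted p = 3.68e-09) and -1.33 ± 0.08 (limma adjusted p = 1.44e-08). The difference between siMRGX and siMRGBP was -2.98 ± 0.08 (limma adjusted p = 4.18e-11).

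RBM7, an RNA-binding subunit of the nuclear exosome targeting complex, had 45.8 and 49.2 CPM in siMRG15, 14.5 and 14 in siMRGX, 33.9 and 33 in siMRGBP, 29 and 31.1 in siBRD8, and 24.6 and 23.4 in siTIP60, against 42.8 and 51 CPM in siLuc. It fell most in siMRGX, with a change of -1.64 ± 0.08 (limma adjusted p = 4.14e-09), and the siMRGX libraries lay below every other library. It also fell in siTIP60 (-0.93 ± 0.08), siBRD8 (-0.62 ± 0.08) and siMRGBP (-0.47 ± 0.08). RBM38, a p53-induced regulator of messenger RNA stability, had 103 and 107 CPM in siMRG15, 39.9 and 39.8 in siMRGX, 98.4 and 90.7 in siMRGBP, 130 and 131 in siBRD8, and 87.2 and 79.7 in siTIP60, against 95.7 and 87.7 CPM in siLuc. It too was lowest in siMRGX, with a change of -1.18 ± 0.07 (limma adjusted p = 1.19e-08), and it rose in siBRD8 by 0.51 ± 0.07. RBM20, a heart and muscle splicing factor known for titin, had 6.93 and 7.03 CPM in siMRG15, 1.97 and 2.04 in siMRGX, 4.24 and 4.8 in siMRGBP, 3.04 and 3.21 in siBRD8, and 5.84 and 5.5 in siTIP60, against 4.22 and 3.55 CPM in siLuc. It rose in siMRG15 by 0.71 ± 0.09 and fell in siMRGX, with a change of -0.70 ± 0.09, a difference of 1.41 ± 0.09 (limma adjusted p = 1.63e-08).

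RBM15B, a partner of the complex that methylates adenosine in RNA, had 94.7 and 97.3 CPM in siMRG15, 115 and 119 in siMRGX, 53.8 and 58.3 in siMRGBP, 106 and 105 in siBRD8, and 64.2 and 61.7 in siTIP60, against 62.3 and 58.1 CPM in siLuc. It rose in siMRGX by 0.95 ± 0.06 (limma adjusted p = 3.53e-08), in siBRD8 by 0.80 ± 0.06 and in siMRG15 by 0.67 ± 0.06, and did not pass in siMRGBP or siTIP60. RBM47, an RNA-binding cofactor of APOBEC1, had 3.62 and 3.44 CPM in siMRG15, 1.71 and 1.69 in siMRGX, 1.1 and 1.12 in siMRGBP, 4.37 and 4.85 in siBRD8, and 2.61 and 2.31 in siTIP60, against 1.63 and 1.59 CPM in siLuc. It was highest in siBRD8, with a change of 1.11 ± 0.08 (limma adjusted p = 3.78e-07), and also rose in siMRG15 and siTIP60. RBM11, a splicing regulator of restricted tissue range, had 3.38 and 3.54 CPM in siMRG15, 1.36 and 1.13 in siMRGX, 2.13 and 2.25 in siMRGBP, 2.32 and 2.21 in siBRD8, and 4.22 and 3.64 in siTIP60, against 1.87 and 1.8 CPM in siLuc. It rose in siTIP60 by 0.79 ± 0.09 (limma adjusted p = 3.38e-06) and in siMRG15 by 0.65 ± 0.09.

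RBM14, a nuclear coactivator found in paraspeckles, had 144 and 153 CPM in siMRG15, 150 and 140 in siMRGX, 279 and 252 in siMRGBP, 195 and 195 in siBRD8, and 115 and 124 in siTIP60, against 162 and 181 CPM in siLuc. It was highest in siMRGBP, with a change of 0.63 ± 0.08 (limma adjusted p = 1.19e-05), and lowest in siTIP60, with -0.52 ± 0.08. RBM4, a splicing and translation regulator whose gene neighbours RBM14, had 4.96 and 4.68 CPM in siMRG15, 7.98 and 6.73 in siMRGX, 3.91 and 4.23 in siMRGBP, 5.27 and 5.99 in siBRD8, and 2.34 and 2.4 in siTIP60, against 6.56 and 6.94 CPM in siLuc. It fell in siTIP60, with a change of -1.20 ± 0.09 (limma adjusted p = 9.05e-08), in siMRGBP, with -0.61 ± 0.09, and in siMRG15, with -0.41 ± 0.09. Reads of both genes can also be assigned to the read-through RBM14-RBM4, which lay between 0.454 and 1.2 CPM in all libraries, so the values of this locus are uncertain.

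RBM22, RBM25 and RBM12 fell in siTIP60. RBM22, which sits at the catalytic centre of the spliceosome, had 54.5 and 54.2 CPM in siTIP60, against 102 and 107 CPM in siLuc, a change of -0.93 ± 0.05 (limma adjusted p = 6.58e-09). RBM25, which associates with the U1 particle, had 106 and 135 CPM in siTIP60, against 235 and 242 CPM in siLuc, a change of -0.99 ± 0.10 (limma adjusted p = 7.62e-07). RBM12 had 84.2 and 90.9 CPM in siTIP60, against 167 and 172 CPM in siLuc, a change of -0.94 ± 0.06 (limma adjusted p = 1.41e-08). In none of these 3 did siTIP60 and siLuc libraries overlap. RBM12 and RBM25 passed in no other knockdown, and RBM22 rose in siMRGX, by 0.16 ± 0.05, a call lost without siLuc replicate 1 or either siMRGX library (limma adjusted p up to 0.105).

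Core spliceosome families were nearly empty in the table. PRPF38A, a protein of the precatalytic spliceosome, had 35.2 and 39 CPM in siMRG15, 31 and 30.3 in siMRGX, 70.5 and 70.3 in siMRGBP, 75.2 and 76.3 in siBRD8, and 51.5 and 51.9 in siTIP60, against 75.6 and 64.3 CPM in siLuc. It fell in siMRGX, with a change of -1.16 ± 0.08 (limma adjusted p = 3.56e-08), in siMRG15, with -0.90 ± 0.08 (limma adjusted p = 3.66e-07), and in siTIP60, with -0.42 ± 0.08, and its libraries overlapped with siLuc in siMRGBP and siBRD8. The only SNRP entry was SNRPGP2, a pseudogene of the Sm protein gene SNRPG, and SNRPG reads may be assigned to it. It fell in siTIP60 (-0.56 ± 0.11). Among the remaining entries the antisense transcript RBM12B-AS1 fell in siTIP60 (-0.48 ± 0.11) and rose in siMRG15 (0.41 ± 0.11), the second a call lost without siLuc replicate 2 (limma adjusted p = 0.0623). The pseudogene RBM22P3, whose reads may come from RBM22, rose in siMRG15 (0.54 ± 0.10) and in siBRD8 (0.35 ± 0.10), the second a call lost without siBRD8 replicate 1 or siLuc replicate 1 (limma adjusted p up to 0.0743).

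Splicing and RNA-binding genes outside the name families were drawn from 4 lists, of which 37 genes were in the table. These were 5 of 24 SR-related proteins and SR protein kinases and 8 of 57 core spliceosome genes. The others were 8 of 28 LSM and SMN complex genes and 16 of 58 other RNA-binding regulators. Most list genes were thus outside the table and not seen. In siTIP60 25 of the 37 fell (67.6%) and 5 rose (13.5%), with a median change of -0.58, where 37.7% of all genes fell and 41.1% rose. In siMRGX 18 rose (48.6%) and 11 fell (29.7%), beside 28.2% and 40% of all genes. In siMRG15 14 rose (37.8%) and 13 fell (35.1%), close to the 33.5% and 35.8% of all genes. In siMRGBP 9 rose (24.3%) and 7 fell (18.9%), beside 32.1% and 32.9%, and in siBRD8 14 rose (37.8%) and 7 fell (18.9%), beside 28.3% and 25.9%. All 5 listed SR-related proteins and SR protein kinases fell in siTIP60. Of these, DYRK1A, a kinase that phosphorylates splicing factors, changed by -0.93 ± 0.06 (limma adjusted p = 2.9e-08) and the SR protein kinase SRPK2 by -0.74 ± 0.07 (limma adjusted p = 6.78e-07). Of 8 listed LSM and SMN complex genes, 6 fell and 0 rose in siTIP60, whereas 6 rose and 0 fell in siMRGX. Without siLuc replicate 1 the siTIP60 count was 6 lower and 2 higher. In both knockdowns the split of each of the 4 lists kept its direction under both other scalings.

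Of the 8 listed core spliceosome genes 5 rose and 3 fell in siTIP60, where 41.1% of all genes rose and 37.7% fell. In siMRGX 7 rose and 0 fell, where 28.2% of all genes rose and 40% fell. More rose than fell in the other knockdowns too, 5 against 1 in siMRG15 and in siMRGBP and 6 against 0 in siBRD8. XAB2, a spliceosome protein also tied to DNA repair, had 76.1 and 70.4 CPM in siTIP60, against 31.2 and 31 CPM in siLuc, a change of 1.21 ± 0.06 (limma adjusted p = 2.29e-09). XAB2 also rose in siMRG15 (0.81 ± 0.06), siBRD8 (0.80 ± 0.06), siMRGX (0.65 ± 0.06) and siMRGBP (0.54 ± 0.06). The cyclophilin PPIL1 had 117 and 116 CPM in siMRGX and 34.5 and 33.7 in siTIP60, against 62 and 64.2 CPM in siLuc. It changed by 0.87 ± 0.06 in siMRGX and -0.87 ± 0.06 in siTIP60. Of 16 other RNA-binding regulators 11 fell and 0 rose in siTIP60, where 37.7% of all genes fell and 41.1% rose. By size of p the first were NONO (-1.22 ± 0.06), a paraspeckle protein, RBPMS2 (-0.99 ± 0.06) and TARDBP (-1.15 ± 0.09), which encodes TDP-43. In siMRGX 11 of the 16 fell too and 2 rose, where 40% of all genes fell and 28.2% rose. PCBP2 changed there by -1.48 ± 0.08 and FMR1 by -1.46 ± 0.09.

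The authors' deposited table of transcripts gave a view of these families by transcript, as marks of up or down per comparison with no values per library. Its 25895 transcripts, each with at least 1 mark, included 299 from 108 genes of the name families, 120 of them from 39 of the 49 genes. By the marks of the authors' deposited table, 89 of the 299 (29.8%) were marked down and 22 (7.36%) up in siTIP60 against siLuc, where 17.9% and 20.1% of all transcripts were. Against siLuc, 45 (15.1%) were marked down and 13 (4.35%) up in siMRG15, where the shares of all transcripts were 13% and 7.29%. For siMRGX the authors' marks were 43 down (14.4%) and 22 up (7.36%), beside 14.1% and 8.19% of all transcripts. The rule behind the marks is not given in the sources used here, so these are counts only. The marks compare the same siRNA groups of the same series as the gene-level tests and are not an independent check of them.

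**Figure D5:**
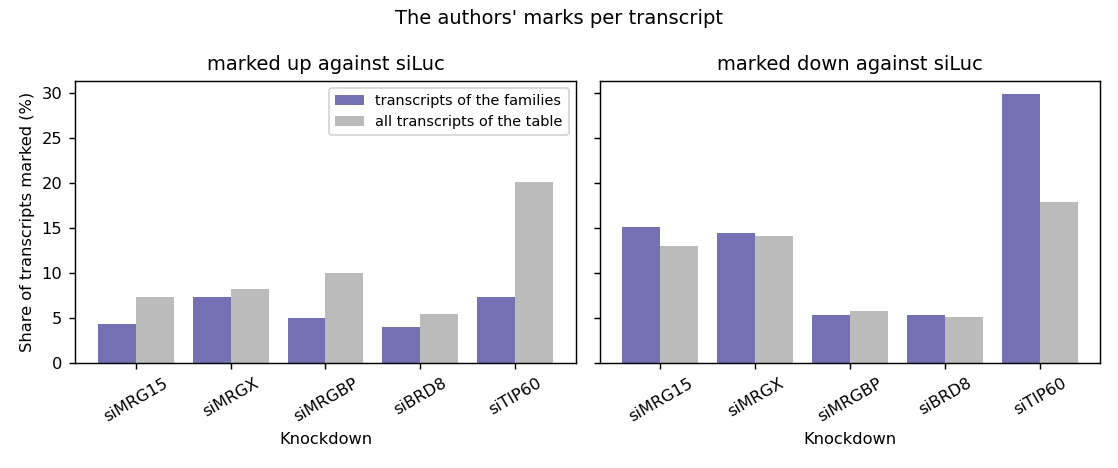
Share of transcripts that the authors' deposited table marks up (left) or down (right) against siLuc in each knockdown, for the 299 transcripts of the name families (purple) and all 25895 transcripts (grey). The siTIP60 down bar of the families stands at 29.8%, beside 17.9% for all transcripts, and the siTIP60 up bar at 7.36%, beside 20.1%.

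Marks and gene-level calls can be set side by side for the 39 genes in both tables. The gene-level calls used no cut on the size of change and the rule of the marks is unknown, so their thresholds may differ. Of the 24 that fell in siTIP60 at the gene level, 14 had a transcript marked down and 1 a transcript marked up in the authors' deposited table, and of the 10 that rose 7 had one marked up and 0 one marked down. Of those that fell, a transcript was marked down for 14 of 18 in siMRGX, 7 of 14 in siMRG15, 3 of 15 in siMRGBP and 3 of 10 in siBRD8. Of those that rose, one was marked up for 3 of 11 in siMRGX, 5 of 13 in siMRG15, 4 of 8 in siMRGBP and 4 of 12 in siBRD8. The matching counts over all genes were not made, so nothing particular to these families can be read from them. For the 31 of these genes with more than 1 transcript, a mark against siLuc was present in 69 pairs of gene and knockdown. In 35 of the 69 only 1 transcript was marked, in 8 all transcripts were marked alike, and in 4 marks went both ways. The genes that follow were chosen after their marks were seen. All 4 CELF2 transcripts were marked up in siMRG15, all 3 QKI transcripts down in siMRG15, and 7 of 9 MBNL1 transcripts down in siMRG15, in the authors' deposited table. PTBP2 had 3 of 5 transcripts marked up in siMRGBP and 4 of 5 down in siTIP60. HNRNPC had 4 of 8 marked down and 1 up in siTIP60, and PTBP3 had 1 of 4 marked down in siMRG15. PTBP1 was mixed in siMRG15, with 1 of its 6 transcripts marked up and 2 down, where its gene level did not pass the test.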

How the data were processed

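Polyadenylated RNA of 12 U2OS libraries was analysed; 4 samples of chromatin immunoprecipitation from K562 cells were not analysed here. The submitters' processing notes name MACS2 2.0.10, Bowtie2 2.1.6, Subread 2.0.0 with featureCounts, minimap2 2.17-r941 and build hg19, with no role or order. The authors deposited CPM values, scaled to an effective library size, for 8813 entries, of which 5 repeats were removed. Every value was a whole number of reads within a tolerance of 0.01 of a read, which gave back the reads and the size of each library. In every library what 1 read is worth was read from the smallest gap between adjacent values, 0 included, and refined by least squares. In 3 libraries (siTIP60 replicates 1 and 2 and siBRD8 replicate 1) low values were scarce, so their sizes are less sure. The authors' deposited table of transcripts holds only marks of 0 or 1, which were counted and not tested.

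Values were tested as log2(CPM + 1) with limma 3.58.1 (R 4.3.3) with an intensity trend, 6 group means, 6 residual degrees of freedom before moderation, two-sided, Benjamini-Hochberg over 8808 genes and a threshold of 0.05, and checked on simulated data. Alternatives were pseudocounts of 0.5 and 5, a mean of at least 5 CPM, TMM and median-of-ratios factors, each pair of groups alone, a replicate block, each library left out, and, added after the values were seen, edgeR 4.0.16 on the recovered reads. Replicate numbers did not pair the libraries (correlations of deviations -0.47 to 0.183). Levels in every library are given for genes picked by a rule on size and direction of change, and the other genes described were picked after their values were seen. The members and lists were chosen with earlier results of these data known. Intervals are not given for levels, and SEs cover the spread between libraries only. Sequences are RefSeq promoter windows on GRCh38.p14, not the build of the files.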

Additional observations from a re-analysis of the deposited data

How the results depend on the processing

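Of the 150 changes against siLuc that passed among 245 tests, 116 could be tested under all 20 alternatives, of which 95 passed in every one. The other 34, of genes under a mean of 5 CPM, could be tested under 19, of which 22 passed in every one. In all 33 were lost under at least 1, with 0 reversed. Leaving out siLuc replicate 2 cost the most, 20 calls, and the edgeR quasi-likelihood test on recovered reads cost 0. With genes under a mean of 5 CPM left out, the genes higher numbered 9 in siMRG15 and 5 in siTIP60, since fewer genes were tested. With the replicate block 30 genes passed in siMRG15 and 30 fell in siTIP60, and 3 calls were lost, those of HNRNPC in siMRGBP (limma adjusted p = 0.0628), NOVA1 in siMRG15 (limma adjusted p = 0.0571) and RBM20 in siBRD8 (limma adjusted p = 0.0525). Leaving out 1 library at a time gave 26 to 30 genes lower in siTIP60, and 21 to 35 genes passing in siMRG15, where the 21 came without siLuc replicate 2. With a group reduced to 1 library, that library was assumed to vary like the other groups. For siMRGX the TMM split was 16 higher and 16 lower and the median-of-ratios split 18 and 16. One read was worth 0.00906 to 0.0175 CPM, and 8 of the 49 genes had under 30 reads in at least 1 library, the lowest being CELF3 with 5 reads in siMRGX replicate 1. The causes of these shifts were not tested.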

Other observations

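Family genes outside the table of CPM values were seen only through the authors' deposited table of transcripts, where 69 of them had 179 transcripts. In siTIP60 the authors' marks put 55 of these (30.7%) down and 12 (6.7%) up, where 17.9% and 20.1% of all transcripts were. They came from 30 genes with a transcript marked down and 11 with one marked up. In siMRG15 27 (15.1%) were marked down and 4 (2.23%) up, beside 13% and 7.29% of all transcripts. RBFOX2, a splicing regulator that binds the same element as RBFOX1, had 12 of 17 transcripts marked down in siMRG15 and 3 marked down in siTIP60. SRSF10, an SR-like protein, had 6 of 7 marked down in siTIP60. Of the hnRNP genes, HNRNPU had 5 of 8 marked down there, HNRNPL 4 of 8, HNRNPA1 4 of 6 and HNRNPUL1 all 4. Others differed: SRSF1, SRSF3, SRSF6 and HNRNPDL had no transcript marked in siTIP60, and HNRNPH3 had 1 marked each way. These genes were chosen after their marks were seen, and no test was made.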
